A study of Mus musculus with 16 samples.

Results

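Loss of DRP1 without ethanol and ethanol without loss of DRP1 were compared directly, as 2 single insults to the mouse liver. The comparison sets 4 liver RNA-seq libraries labelled liver-specific Dnm1l knockout and control-fed (KO control, titled Drp1KO CDM) against 4 labelled wild type and ethanol-fed (WT ethanol, titled Drp1WT EDE). A further 4 wild-type, control-fed libraries (WT control, titled Drp1WT CDM) give the reference level. A gene entered when its mean over all 16 libraries of the series was at least 10 normalised reads, and 13256 of 27288 genes did. A normalised read is a read count divided by 1 size factor per library. The rule on the mean fell between Gm6581 (10.01 normalised reads) and Abhd11os (10.02) just inside and Nme2 (9.996) and AC154912.3 (9.993) just outside.

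Every group is labelled C57BL/6 and 8 to 10 weeks of age, and every library is from total RNA of whole liver read as single ends of 75 bases. The ethanol-fed mice are labelled as having gone through the Gao-Binge model, in which an ethanol liquid diet is followed by a single large dose of ethanol. The remaining 4 libraries of the series are ethanol-fed knockouts (KO ethanol), and they enter here only where they are placed between the other groups. The Cre line, the deleted exons, the sex, the control diet's makeup and whether each library is 1 mouse are unstated in the sources used. The p-values therefore measure the spread between these libraries. That spread exceeds read sampling: the mean chi-square per gene between 2 libraries of a group was 9.955 to 107.5, where sampling alone gives about 1. Whether it lies between mice or between preparations was not tested.

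DRP1, encoded by Dnm1l, is a dynamin-like GTPase that assembles on mitochondria and divides them. Interferon-stimulated genes are switched on through the interferon receptor and IRF factors after cytosolic or endosomal nucleic acid sensing, and in the liver they are read in hepatocytes as well as in resident macrophages. Ethanol is oxidised in hepatocytes by alcohol dehydrogenases, CYP2E1 and catalase, and the nuclear receptor CAR drives Cyp2b and Cyp2c drug-metabolising enzymes in the same cells.

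Dnm1l itself did not separate the groups. It read 666, 654, 539 and 709 normalised reads in the 4 KO control libraries and 778, 771, 725 and 697 in the 4 WT ethanol libraries, so 1 KO control library lay above the lowest WT ethanol library. The means were 641.9 ± 72.7 and 742.7 ± 38.4 (SD, n = 4 each), and an exact two-sided permutation test gave p = 0.0571, where the smallest this design allows is 0.0286. WT control stood at 707, 581, 686 and 677. The count covers the whole gene (chromosome 16, 16312230 to 16358959, minus strand, GRCm38) and does not resolve a deleted exon, so it does not check the knockout labels. "KO" below means the libraries labelled so, and every direction drawn for them rests on that label.

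Depth was 11425136 to 13864862 reads per library. The 18 hepatocyte markers in the table all averaged at least 10 normalised reads, so the defining markers of the labelled tissue were present. WT ethanol libraries 1 and 2 stood apart from libraries 3 and 4: the mean log2 level of 29 acute-phase genes was 14.1 and 13.9 in libraries 1 and 2 against 11.6 and 12.5 in libraries 3 and 4, and KO control library 3 (12.98) stood above the other KO control libraries (11.5 to 11.7). For that reason a list's count is repeated below with libraries 3 and 4 of each group alone where its larger count moved by over 1.5 times, and for some other lists. Over all 13256 genes, libraries 3 and 4 alone gave 1036 higher in KO control and 1025 higher in WT ethanol, against 2439 and 2473 with all libraries. Libraries 1 and 2 alone gave 2571 and 2597. A drop in a list's count is to be read beside these numbers. WT control library 2 was the highest of its group for Kupffer cell markers, and KO ethanol library 1 held pancreas transcripts (acinar markers summed to up to 10867 normalised reads in KO ethanol against at most 172.3 in KO control and 145.8 in WT ethanol). In tissue of mixed cells, fewer cells of a type and less RNA per cell cannot be told apart.

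Of the 13256 genes, 4912 (37.1%) differed between KO control and WT ethanol at an adjusted p under 0.05 in limma: 2439 (18.4%) were higher in KO control and 2473 (18.7%) were higher in WT ethanol. A difference of at least 2-fold was seen in 929 of the first and 744 of the second. The 18.4% and 18.7% are the background for the list counts below. The 4 and 4 libraries did not overlap in 3567 of the 4912, against 3880 of all genes tested. A further question is which genes ended at the same level, tested as a difference smaller than 1.5-fold in either direction: 4398 genes (33.2%) passed, 334 of them also among the 4912 because a small difference can be both called and bounded. For 4280 genes neither statement could be made.

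Set against WT control, the knockout alone moved fewer genes than ethanol alone. KO control differed from WT control in 1544 genes (849 higher, 6.4%, and 695 lower, 5.24%), and WT ethanol in 5032 (2508 higher, 18.9%, and 2524 lower, 19%). Both comparisons use the same 4 WT control libraries. Among the 2439 genes higher in KO control, 1356 were lower in WT ethanol than in WT control and not called in KO control, 303 were higher in KO control only, 164 were higher in KO control and lower in WT ethanol, and 519 were called in neither. Among the 2473 genes higher in WT ethanol, 1545 were higher in WT ethanol only, 217 were lower in KO control only, 51 were lower in KO control and higher in WT ethanol, and 569 were called in neither.

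**Figure D1:**
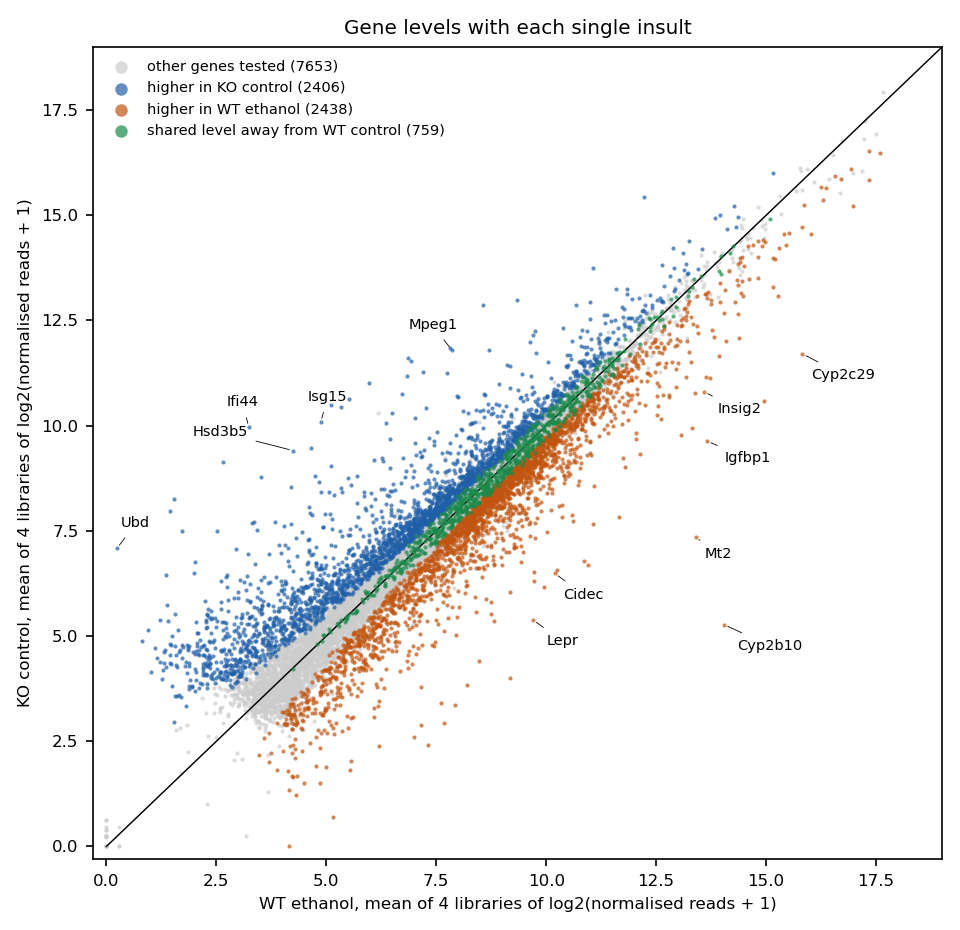
Mean level of each of the 13256 genes in WT ethanol (x axis) and KO control (y axis), as the mean of 4 libraries of log2(normalised reads + 1); the diagonal marks equal levels. Blue genes were higher in KO control, orange genes higher in WT ethanol, green genes reached a shared level away from WT control (759, of which 68 were also called different), and Cyp2b10 lies farthest below the diagonal among the genes labelled.

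Interferon-stimulated genes had the largest median difference of the 50 gene lists examined. The lists were chosen with earlier results of these data known, so this ranking is descriptive. All 57 tested members of a list of 58 were higher in KO control than in WT ethanol, against 18.4% of all genes. In all 57 the 2 sets of 4 libraries did not overlap, where 1955 of all 13256 genes were higher in KO control without overlap. The median log2 difference of the 57 was 3.07 (8.39-fold), against -0.01 over all genes tested. In KO control 55 of the 57 were above WT control and none was below, where 6.4% of all genes were above. In WT ethanol 41 of the 57 were below WT control and none was above, where 19% of all genes were below. The medians against WT control were 2.14 in KO control and -0.73 in WT ethanol.

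Isg15, a ubiquitin-like protein conjugated to viral and cellular proteins, read 1277, 935, 938 and 1224 normalised reads in KO control and 34.4, 24.5, 26.9 and 28.4 in WT ethanol. WT control lay between them at 89.7, 74.6, 91.9 and 79.9, and no library of one group reached another. The difference was 36.9-fold (log2 5.21 ± 0.18 SE, adjusted p = 3.71e-12). Oasl2, an oligoadenylate synthetase-like protein, had the largest difference among genes higher in KO control whose mean was above that of the median gene, with 1271, 1226, 1192 and 2249 in KO control and 34.4, 29.1, 43.7 and 28.4 in WT ethanol (log2 5.38 ± 0.23). Ifit1 and Ifit3, which bind foreign RNA and its signalling partners, followed at log2 5.12 ± 0.32 and 5.11 ± 0.23. Irf7, the transcription factor that amplifies type I interferon, read 2623 to 3846 in KO control, 94.4 to 155 in WT ethanol and 255 to 615 in WT control. Ifi27, a mitochondrial interferon-induced protein, read 6926 to 8409 against 360 to 389 (log2 4.30 ± 0.12). Ly6a differed in one respect: its WT ethanol libraries (94.7 to 147) were not called different from WT control (51.0 to 144), while KO control read 1154 to 4186. Oasl1 differed by log2 4.04, and Apol9a and Apol9b, apolipoprotein L genes so alike that their reads may be shared, by 5.06 and 4.06.

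The stretch of promoter just before the start of 4 of these genes is shown, because interferon response elements lie in this part of such genes. Each is the 150 bases before the RefSeq start (GRCm38.p6), in the direction of the gene, with matches to GAAANNGAA or its reverse complement TTCNNTTTC in capitals; overlapping matches run together. They lie at chr4:156200819-156200968 (minus strand) for Isg15, chr19:34640739-34640888 (plus strand) for Ifit1, chr19:34583379-34583528 (plus strand) for Ifit3 and chr5:120907526-120907675 (minus strand) for Oas1a.
Isg15: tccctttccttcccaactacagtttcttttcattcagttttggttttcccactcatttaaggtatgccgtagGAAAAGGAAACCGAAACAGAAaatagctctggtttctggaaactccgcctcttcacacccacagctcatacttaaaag
Ifit1: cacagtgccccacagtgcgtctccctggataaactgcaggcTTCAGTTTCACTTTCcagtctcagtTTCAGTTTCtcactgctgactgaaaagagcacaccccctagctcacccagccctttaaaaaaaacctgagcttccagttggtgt
Ifit3: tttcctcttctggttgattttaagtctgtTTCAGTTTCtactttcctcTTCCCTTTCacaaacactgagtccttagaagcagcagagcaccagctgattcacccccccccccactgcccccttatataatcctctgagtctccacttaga
Oas1a: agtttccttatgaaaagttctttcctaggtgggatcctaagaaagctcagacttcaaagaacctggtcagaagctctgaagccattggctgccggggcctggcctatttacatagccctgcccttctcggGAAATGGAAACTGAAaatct
Isg15 and Ifit1 held 3 matches each in this stretch, and Ifit3 and Oas1a held 2.

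Over promoters of 300 bases, 250 before and 50 after the start, the motif was present in 26 of the 41 interferon-stimulated genes with an entry (63.4%). It was present in 9.76% of all 27025 genes in the promoter table, 8.94% of the 9756 tested genes with an entry, 12.4% of those higher in KO control, 8.33% of those higher in WT ethanol and 8.2% of those at a shared level. Oasl2 and Irf7 had no match in the stretch of 150 bases, which says only that these letters are not in that window.

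Genes of antigen presentation by class I molecules moved with them. Of 24 tested, 23 were higher in KO control and none was higher in WT ethanol (background 18.4% and 18.7%), with a median log2 difference of 1.32. Psmb8 and Psmb9, catalytic subunits of the immunoproteasome, read 715 to 1071 and 499 to 683 in KO control against 148 to 170 and 89.7 to 136 in WT ethanol. Psmb8 had a log2 difference of 2.36 ± 0.11 (adjusted p = 3.46e-10). Tap1, the peptide transporter, differed by 3.52-fold, and H2-Q7, a class I heavy chain of a near-identical family, by 3.08-fold. Ordinary proteasome subunits showed a smaller shift the same way: 18 of 31 were higher in KO control and none was higher in WT ethanol, with a median of 0.31, and 20 of the 31 were nonetheless bounded within 1.5-fold. The count of 18 became 8 with libraries 3 and 4 alone and 10 with libraries 1 and 2 alone. Psma5 read 325 to 392 in KO control, 197 to 245 in WT ethanol and 234 to 304 in WT control.

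Cytosolic nucleic acid sensors and inflammasome genes also leaned to KO control, with 15 of 26 higher there and 1 higher in WT ethanol (background 18.4% and 18.7%). Their median log2 difference was 1.14. Gsdmd, the pore-forming gasdermin, read 532 to 722 in KO control, 438 to 475 in WT control and 235 to 319 in WT ethanol, an ordered series with no overlap (log2 1.21 ± 0.11 between the outer groups). Ifi206, Ifi204 and Mndal belong to a cluster of near-identical DNA sensors on chromosome 1, and all 3 were higher in KO control (log2 4.36, 1.88 and 1.99). Of 23 tested inflammatory genes and chemokines, 7 were higher in KO control and 1 in WT ethanol (the same background), against 4 and 0 with libraries 3 and 4 alone. Against WT control, 11 of the 23 were higher in KO control and 9 in WT ethanol, where 6.4% and 18.9% of all genes were. Another 3 were lower in WT ethanol, where 19% of all genes were. Chemokines that draw in lymphocytes were among the 7 higher in KO control than in WT ethanol. Cxcl10 read 248.6 to 289 in KO control, 9.32 to 48.6 in WT ethanol and 7.27 to 17.9 in WT control, so it was high with the knockout alone. Cxcl9 differed by log2 3.92 ± 0.29 and Ccl5 by 3.72 ± 0.49. Vcam1, an adhesion molecule for leukocytes, read 189 to 329 against 74.2 to 119.

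Macrophage transcripts moved with the interferon genes. Of 19 tested Kupffer cell and macrophage markers, 17 were higher in KO control and 1 was higher in WT ethanol (background 18.4% and 18.7%). The 1 was the scavenger receptor gene Cd163 (named after its value was seen). The median log2 difference of the list was 2.19. The summed level of the 20 markers was 10438 to 16442 normalised reads in KO control, 5702 to 10793 in WT control and 3158 to 5181 in WT ethanol. Mpeg1, a pore-forming protein of phagocytes, read 2137, 3274, 4831 and 4623 in KO control and 349, 197, 203 and 206 in WT ethanol, with WT control at 565 to 1313 (log2 3.93 ± 0.28, adjusted p = 2.85e-08). Cd5l, a macrophage-secreted protein, differed by 8.93-fold, and C1qb, a chain of complement C1q, by 4.82-fold. Fcgr1, the high-affinity IgG receptor, read 61.1 to 104 against 4.64 to 9.83. Against WT control, 11 of the 19 were higher in KO control and 14 were lower in WT ethanol, where 6.4% and 19% of all genes were. How much of the interferon difference these cells carry was not tested.

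Markers of monocyte-derived macrophages showed the same lean between the 2 groups, 11 of 13 higher in KO control and 1 higher in WT ethanol (background 18.4% and 18.7%). The summed level of the 16 markers in the table was 1103 to 1853 normalised reads in KO control and 687.4 to 1021 in WT ethanol. In WT control it was 1180 to 1881, so the sum was not above WT control in KO control. Against WT control, 8 of the 13 were higher and 1 was lower in KO control, where 6.4% and 5.24% of all genes were. Trem2, a lipid receptor of macrophages in injured liver, read 34.1 to 51.3 in KO control, 0 to 4.91 in WT ethanol and 4.15 to 16.9 in WT control. Lgals3 (galectin-3) differed by 5.91-fold and Ly6c2, a marker of inflammatory monocytes, read 15.7 to 45.03 against 0 to 2.33. Cx3cr1, a fractalkine receptor, was not called different between KO control (19.9 to 30.6) and WT control (10.2 to 17.9) and was lower in WT ethanol (0.929 to 2.46). Lymphocyte transcripts were scarce: 14 of 19 T and NK cell markers and 7 of 12 B cell markers in the table averaged under 10 normalised reads. The 5 tested members of each list were all higher in KO control, where 18.4% of all genes were. Markers this low can pass the rule on the mean through the group where they are high, so these counts carry no weight alone. Summed over all 19 T and NK markers, tested or not, the level was 175.9 to 407.1 in KO control and 40.78 to 64.15 in WT ethanol. WT control summed to 81.67 to 159.1. The 12 B cell markers summed to 267.9 to 875.8, 109.5 to 184.3 and 240.8 to 588.7 in the same order. Gzma, a granzyme, read 9.21 to 56.8 against 0 to 3.69, and Igkc, the kappa constant region, 144 to 466 against 64.1 to 112. With libraries 3 and 4 alone 1 of the 5 T and NK markers and 2 of the 5 B cell markers kept their call.

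Transcripts of DNA replication and mitosis were higher with the knockout alone. Of 29 tested proliferation genes 23 were higher in KO control and none was higher in WT ethanol (background 18.4% and 18.7%). Their median log2 difference was 1.54. Mcm6, a helicase subunit, read 224, 214, 62.6 and 208 in KO control and 18.4, 30.3, 18.6 and 28.4 in WT ethanol, with WT control at 52.9 to 120; KO control library 3 sat at the WT control level. Mcm5 had the same shape (95.3, 112, 23.02 and 81.9 against 7.37 to 8.36). Ccne2, the cyclin of the start of DNA synthesis, read 46.0 to 54.0 against 10.5 to 19.2, and Aurka, a mitotic kinase, 27.0 to 57.0 against 6.14 to 14.7. Against WT control 6 of the 29 were higher in KO control and 9 were lower in WT ethanol, where 6.4% and 19% of all genes were. With libraries 3 and 4 alone, 6 of 29 were called and the median was 1.38.

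Sterol synthesis genes fell with ethanol and mostly passed no test against WT control with the knockout alone. Of 25 tested genes of cholesterol synthesis and its regulation, 17 were higher in KO control and 1 was higher in WT ethanol (background 18.4% and 18.7%). The median log2 difference was 1.09. Against WT control, 18 of the 25 were lower in WT ethanol and 1 was lower in KO control, where 19% and 5.24% of all genes were. Insig1, which holds SREBP in the endoplasmic reticulum and is itself a SREBP target, read 1987 to 3750 in KO control, 3203 to 5086 in WT control and 459 to 811 in WT ethanol. The single gene in the other direction was Insig2, the second retention protein: it read 9039 to 20944 in WT ethanol, 1519 to 2425 in KO control and 1115 to 1945 in WT control (log2 -2.79 ± 0.25, adjusted p = 3.31e-07). Srebf1, the lipogenic SREBP, read 3062 to 4735 in KO control, 2788 to 7012 in WT control and 545 to 1180 in WT ethanol. Fasn, fatty acid synthase, was lower than WT control (19014 to 58921) in both groups, but less so in KO control (17880 to 20496) than in WT ethanol (6438 to 8592). Of 26 lipogenic genes 12 were higher in KO control and 2 in WT ethanol (the same background). With libraries 3 and 4 alone these counts became 5 and 1 of 25 for cholesterol, with a median of 1.31, and 3 and 2 of 26 for lipogenesis, with a median of 0.09. Acly, ATP citrate lyase, Acat2 and Nr1h3, the receptor LXR-alpha, were among the calls lost.

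Complement and coagulation genes leaned to KO control, and growth hormone axis and sex-biased genes were split. Of 35 tested complement and coagulation genes, 16 were higher in KO control and 3 in WT ethanol (background 18.4% and 18.7%). C9, the pore protein of the membrane attack complex, read 8391, 10332, 10116 and 9942 in KO control, 6520 to 8906 in WT control and 3317, 3231, 3075 and 2734 in WT ethanol (3.14-fold, adjusted p = 1.5e-08). C6 differed by 3.91-fold, Mbl2, a mannose-binding lectin, by 2.15-fold and C2 by 1.88-fold. Of 25 growth hormone axis and sex-biased genes, 12 were higher in KO control and 6 in WT ethanol (the same background, to which the second count was near). Hsd3b5, a steroid dehydrogenase typical of the male liver, was lower in both groups than in WT control (1914 to 3977), with 313 to 1278 in KO control and 4.58 to 34.4 in WT ethanol. Mup21, a major urinary protein of a near-identical family, and Cyp4a12a, a fatty acid hydroxylase, differed by log2 4.63 ± 0.55 and 3.10 ± 0.33. Prlr, the prolactin receptor, went the other way: 486 to 845 in KO control, 874 to 1649 in WT control and 1431 to 2661 in WT ethanol.

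**Figure D2:**
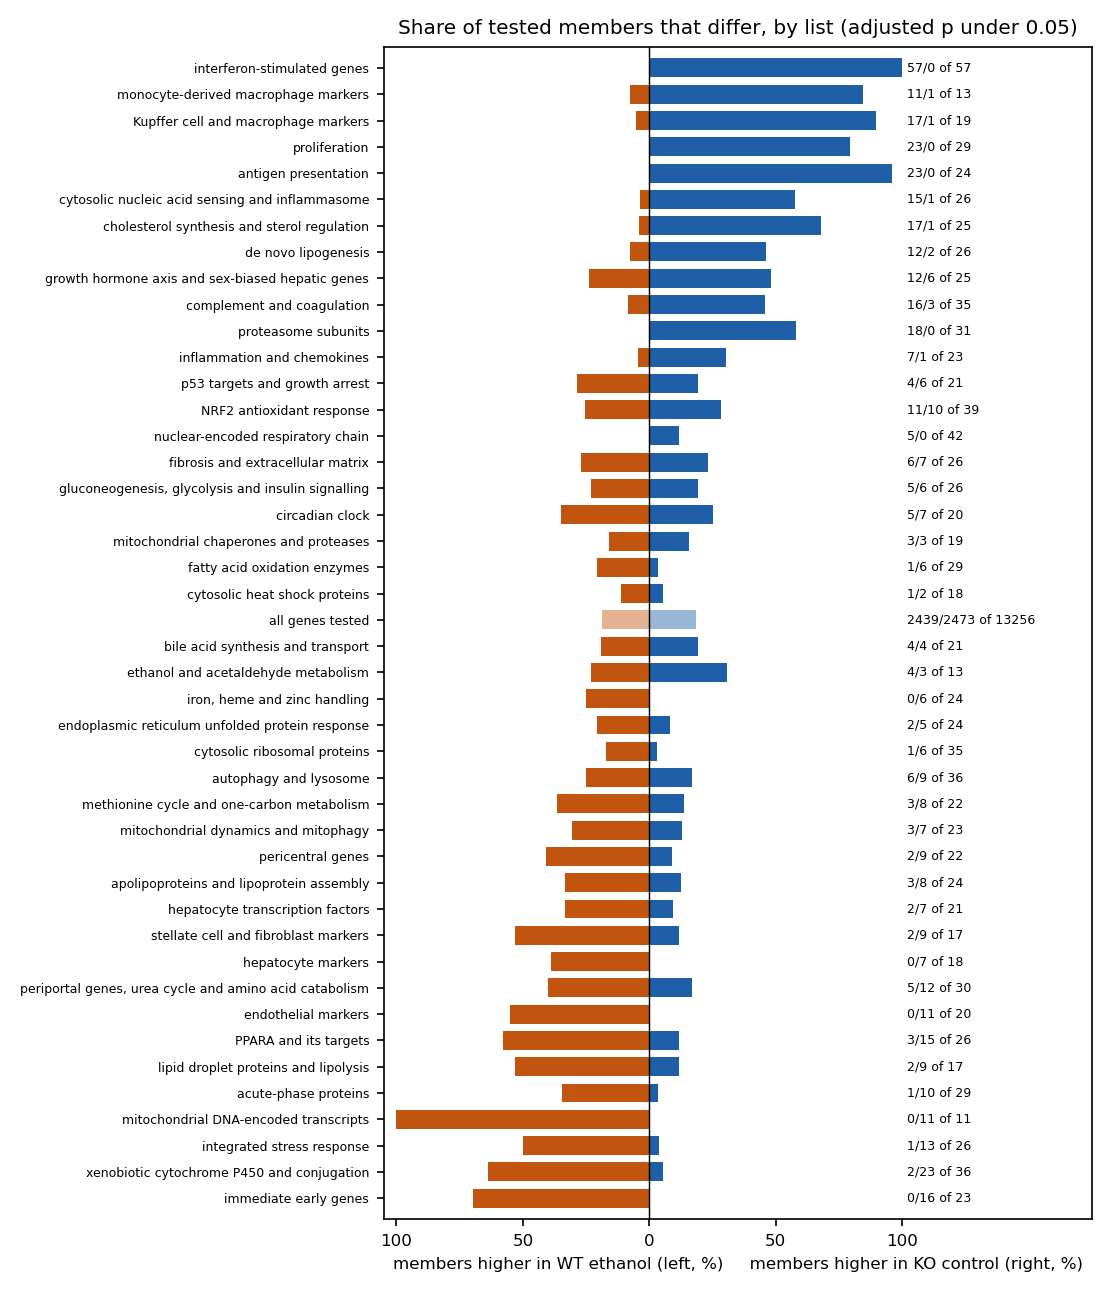
Share of tested members of each list that were higher in KO control (right, blue) or higher in WT ethanol (left, orange) at an adjusted p under 0.05; the digits give both counts and the number tested, and lists are ordered by median log2 difference. All genes tested are drawn paler at 18.4% and 18.7%; 57 of 57 interferon-stimulated genes lie to the right and 11 of 11 mitochondrial DNA-encoded transcripts to the left.

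Drug-metabolising enzymes were higher in WT ethanol. Of 36 tested cytochrome P450 and conjugation genes, 23 were higher in WT ethanol and 2 in KO control (background 18.7% and 18.4%), with a median log2 difference of -1.19. Cyp2b10, the classic CAR target (chromosome 7, 25897620 to 25926624, plus strand), read 18007, 19134, 15604 and 15001 normalised reads in WT ethanol. It read 77.7, 26.5, 41.4 and 23.4 in KO control and 10.8, 1.99, 2.27 and 5.19 in WT control. All KO control libraries were above all WT control libraries, and the knockout alone raised it by log2 2.90 (adjusted p = 0.000232), yet WT ethanol was 435-fold above KO control (log2 8.77 ± 0.42 in favour of WT ethanol, adjusted p = 2.98e-10). Cyp2c29, of the near-identical Cyp2c family, read 51608 to 68760 in WT ethanol and 2413 to 4543 in KO control, below its WT control level of 5641 to 11629. Gstt3, a theta-class glutathione transferase, differed by 14.2-fold and Cyp26b1, which clears retinoic acid, by 13.8-fold. Libraries 3 and 4 alone gave 19 of 36 higher in WT ethanol and 2 in KO control.

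Metallothioneins, small zinc-binding proteins, were higher in WT ethanol too. Mt2 read 27810, 20111, 2153 and 11213 in WT ethanol and 154, 63.4, 988 and 71.1 in KO control, with WT control at 12.8 to 76.5. The sets did not overlap, but each held a library far from its group: WT ethanol library 3 was low and KO control library 3 was high. Mt1 followed the same pattern (10010 in WT ethanol library 3 and 9553 in KO control library 3), and its call was lost with libraries 3 and 4 alone (log2 -2.38, adjusted p = 0.118). Cdkn1a, the p21 inhibitor of the cell cycle, read 3567, 3769, 895 and 999 in WT ethanol, 65.3 to 138 in KO control and 7.95 to 20.4 in WT control, so the knockout alone also raised it, to a level 17.0-fold below that with ethanol. Igfbp1, an insulin-repressed binding protein, read 22760, 25096, 1397 and 34976 in WT ethanol against 404 to 1315 in KO control, and its call too was lost with libraries 3 and 4 alone (adjusted p = 0.0816). Pdk4, the kinase that switches off pyruvate oxidation, read 255 to 2454 against 52.5 to 107.

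Integrated stress response and immediate early genes were higher in WT ethanol. Of 26 tested stress response genes 13 were higher there and 1 was higher in KO control (background 18.7% and 18.4%). The median log2 difference was -1.13. Of the 26, 7 were above WT control in KO control and 21 in WT ethanol, where 6.4% and 18.9% of all genes were. Psat1, a serine synthesis enzyme, was graded: 15.6 to 42.7 in WT control, 57.0 to 71.1 in KO control and 148 to 567 in WT ethanol. Mthfd2, of mitochondrial folate metabolism, read 47.3 to 52.8 in KO control and 150 to 444 in WT ethanol. Slc3a2, the heavy chain of amino acid transporters, differed by 2.12-fold. Of 23 immediate early genes 16 were higher in WT ethanol and none was higher in KO control (the same background, median -1.28). Ier3 read 45.4 to 109 in WT ethanol and 6.304 to 17.0 in KO control, and Fosl2, an AP-1 subunit, differed by 3.09-fold. Maff, a small MAF factor, differed by 4.05-fold. Egr1 read 5494, 3710, 490 and 2156 in WT ethanol against 114 to 321 in KO control, and its call was lost with libraries 3 and 4 alone. With those libraries 7 of 26 stress response genes and 6 of 23 immediate early genes were higher in WT ethanol.

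Lipid droplet genes and PPARA targets were higher in WT ethanol. Of 17 tested lipid droplet and lipolysis genes 9 were higher in WT ethanol and 2 in KO control (background 18.7% and 18.4%). The median log2 difference was -0.82. Plin2, the main coat protein of hepatocyte lipid droplets, read 12094 to 21373 in WT ethanol, 6036 to 7254 in KO control and 5823 to 7810 in WT control. Cidec, which enlarges droplets, read 936, 917, 1141 and 1908 in WT ethanol and 59.1, 93.7, 179 and 63.0 in KO control, with WT control at 41.5 to 73.9 (13.01-fold). Pnpla2, the first lipase of triglyceride breakdown, differed by 2.56-fold and Plin3 by 2.18-fold. Of 26 genes of PPARA and its targets 15 were higher in WT ethanol and 3 in KO control (the same background). Acot2, a mitochondrial acyl-CoA thioesterase, read 263 to 571 in WT ethanol, 38.7 to 76.7 in KO control and 50.7 to 74.9 in WT control. Creb3l3, a fasting-activated transcription factor of the liver, read 6250 to 6996 against 3405 to 4126. Libraries 3 and 4 alone put 8 of 17 and 12 of 26 higher in WT ethanol.

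Transcripts of the mitochondrial genome moved apart from nuclear genes of the same complexes. All 11 tested mitochondrial DNA-encoded transcripts were higher in WT ethanol (background 18.7%), with a median log2 difference of -1.10. Against WT control, 4 of the 11 were lower in KO control and 7 were higher in WT ethanol, where 5.24% and 18.9% of all genes were. All protein-coding genes of the mitochondrial genome, tested or not, made 2.28% to 3.18% of reads in KO control, 3.51% to 3.85% in WT control and 4.57% to 5.28% in WT ethanol. mt-Cytb, cytochrome b of complex III, read 70152, 66282, 49328 and 52273 in KO control, 103991 to 131886 in WT control and 191879, 190240, 154391 and 132379 in WT ethanol. It was below WT control in KO control (log2 -0.9996, adjusted p = 0.00183) and above it in WT ethanol (0.49, adjusted p = 0.042). mt-Nd5 had a log2 difference of -1.45 ± 0.17 between the groups, mt-Nd4 of -1.10 ± 0.16 and mt-Co1 of -1.10 ± 0.16. Of 42 nuclear-encoded respiratory chain genes, 35 were at the same level within 1.5-fold, where 33.2% of all genes were, and 5 were higher in KO control (1 with libraries 3 and 4 alone). Mitochondrial chaperones and proteases (13 of 19) and fatty acid oxidation enzymes (18 of 29) were also mostly at the same level. With libraries 3 and 4 alone, 6 of the 11 mitochondrial DNA-encoded transcripts were called higher in WT ethanol.

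Endothelial and stellate cell markers ran opposite to macrophage markers. Of 20 endothelial markers 11 were higher in WT ethanol and none was higher in KO control (background 18.7% and 18.4%). The summed level was 5432 to 6427 in WT ethanol, 3666 to 5042 in KO control and 3503 to 4366 in WT control. Bmp2, an endothelial signal to hepatocytes for iron control, read 309 to 414 in WT ethanol and 77.3 to 178 in KO control, and Gpr182, a receptor of sinusoidal endothelium, 263 to 333 against 102 to 171. Of 17 stellate cell and fibroblast markers 9 were higher in WT ethanol and 2 in KO control (the same background), against 6 and 2 with libraries 3 and 4 alone. Of 18 hepatocyte markers 7 were higher in WT ethanol and none was higher in KO control (the same background, median log2 difference -0.45). Libraries 1 and 2 alone gave 9 of 18 and a median of -0.53, and libraries 3 and 4 alone 1 of 18 and -0.17. Over all genes, 1025 of 13256 were higher in WT ethanol with libraries 3 and 4 alone. The part of these cell types in the other differences was not tested.

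Acute-phase proteins leaned to WT ethanol, but the size and direction of the difference depended on which libraries were used. Of 29 tested, 10 were higher in WT ethanol and 1 in KO control (background 18.7% and 18.4%), with a median log2 difference of -0.88. With libraries 3 and 4 alone, however, the counts were 4 and 3 and the median was 0.20. Orm3, an orosomucoid, read 846, 1380, 268 and 711 in WT ethanol, 67.3 to 174 in KO control and 9.94 to 13.6 in WT control, and both groups were above WT control. Saa3, a serum amyloid made by macrophages and stromal cells, was the 1 gene higher in KO control: 276 to 453 against 25.1 to 55.3, with WT control at 24.95 to 103.

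**Figure D3:**
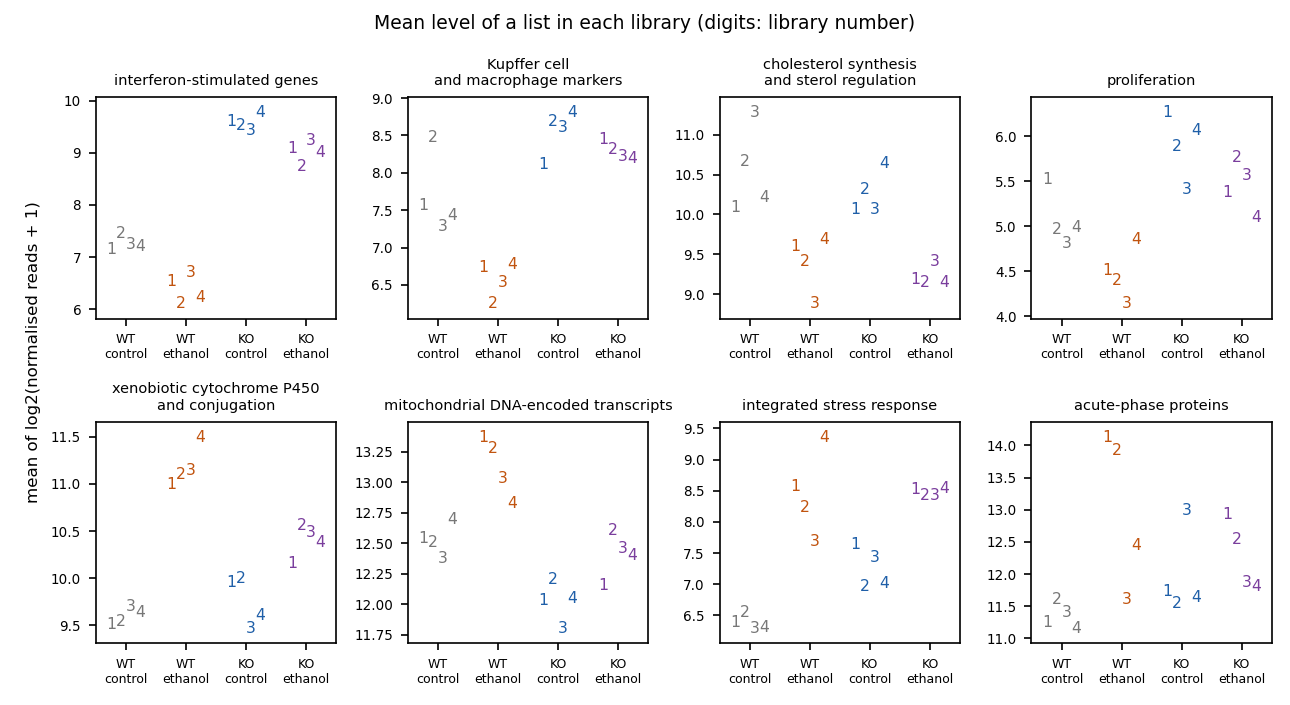
Mean level of 8 lists in each library, as the mean over tested members of log2(normalised reads + 1); digits give the library number within its group. Interferon-stimulated genes run from 9.42 to 9.77 in KO control and from 6.12 to 6.71 in WT ethanol, while acute-phase proteins split WT ethanol libraries 1 and 2 from 3 and 4.

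Some genes moved in opposite directions from WT control with the 2 insults, a reading that uses the same WT control libraries on both sides. The 164 genes higher in KO control and lower in WT ethanol than WT control were led by interferon-induced genes. Ubd, a ubiquitin-like modifier that sends proteins to the proteasome, read 107, 118, 101.3 and 255 in KO control, 6.23 to 6.96 in WT control, and 0, 0, 0.929 and 0 in WT ethanol. Ifi44 read 947, 963, 823 and 1297 in KO control, 36.5 to 65.8 in WT control and 6.14, 6.99, 17.6 and 6.42 in WT ethanol. Mx1, a dynamin-like antiviral GTPase, read 169 to 320, 13.8 to 27.8 and 0 to 7.43 in the same order. Gbp10, a guanylate-binding protein, and the near-identical Oas1a and Oas1g completed the 6 largest. The low WT ethanol values mean that their log2 differences (5.76 to 6.84 on the log2(value + 1) scale) understate the ratio.

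In the other orientation stood 51 genes lower in KO control and higher in WT ethanol than WT control. Lepr, the leptin receptor gene (chromosome 4, 101717404 to 101815352, plus strand), read 54.9, 50.2, 28.5 and 35.1 in KO control, 135, 629, 425 and 360 in WT control and 681, 1505, 492 and 940 in WT ethanol. The KO control libraries did not overlap either of the others, while the lowest WT ethanol library lay below the highest WT control library (log2 -4.31 ± 0.40 between KO control and WT ethanol, adjusted p = 5.92e-07). Vldlr, the VLDL receptor, read 11.4, 4.73, 5.52 and 5.40 in KO control, 17.0 to 35.5 in WT control and 112 to 181 in WT ethanol. Cyp2c37, another CAR-responsive P450, read 589 to 1084, 2118 to 3190 and 7580 to 9888 in that order, again without overlap. Cyp17a1, a steroid hydroxylase, read 39.6 to 171, 222 to 712 and 599 to 2704. Slc16a13, a monocarboxylate transporter, read 2.76 to 9.01, 9.07 to 28.8 and 24.6 to 70.6.

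**Figure D4:**
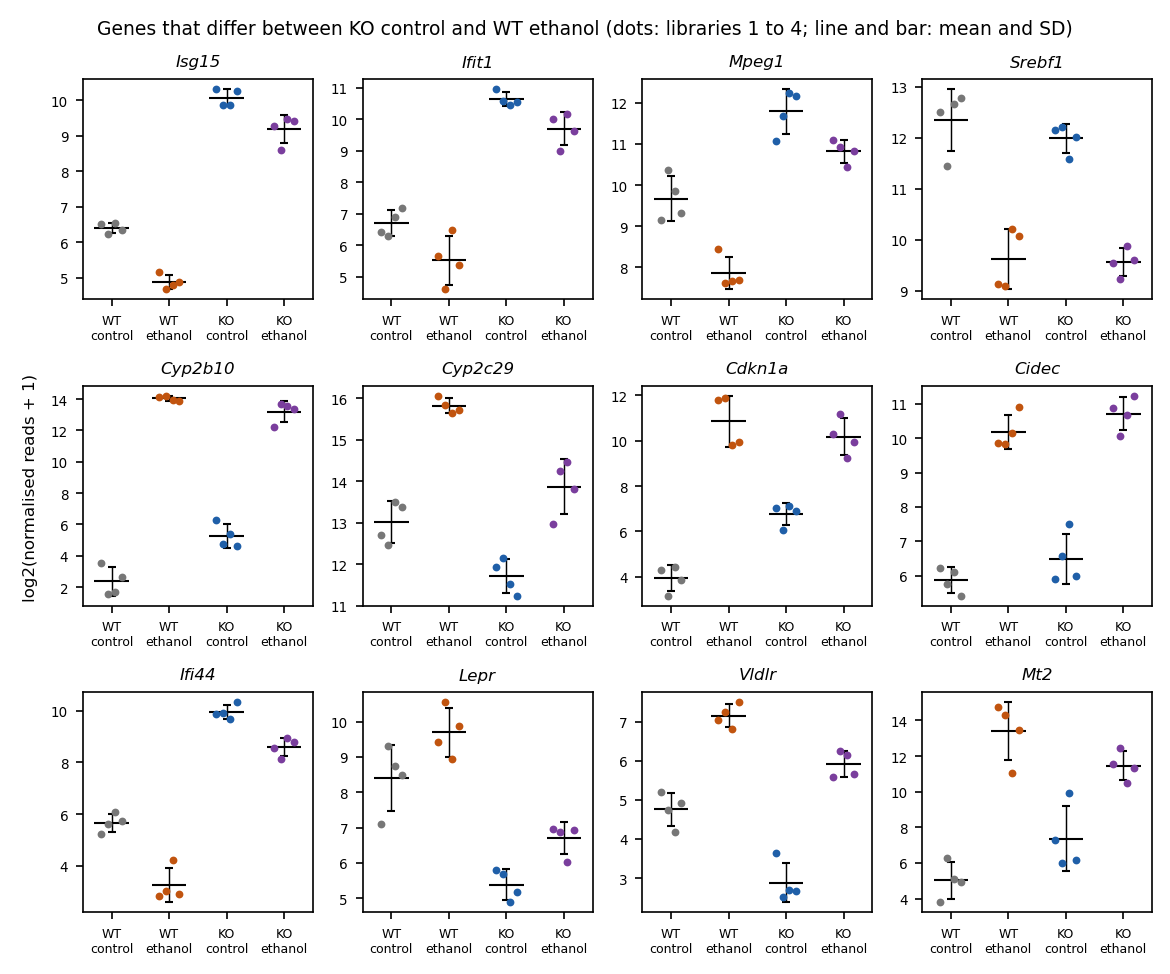
Level of 12 genes that differ between KO control and WT ethanol in all 16 libraries, as log2(normalised reads + 1); dots are libraries and lines with bars are the mean and SD of 4. In Isg15, Ifit1 and Ifi44 KO control lies above WT control and WT ethanol below it; in Lepr and Vldlr the order is reversed.

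A smaller set of genes reached a shared level. Of the 13256 genes, 759 were at the same level within 1.5-fold and had a joint mean away from WT control: 348 above it (2.63%) and 411 below it (3.1%). Of the 348, 101 were called above WT control in both groups separately, and of the 411, 151 were called below it in both. The margin sets this number, since 1848 passed with a margin of 2-fold and 0 with a narrower one. It also rests on single libraries: 213 of the 759 passed in every fit that left out 1 of the 12 libraries, as did 11 of the 31 such genes named here.

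NRF2 antioxidant genes included 5 of 39 at a shared level above WT control, where 2.63% of all genes were. Against WT control, 19 of the 39 were higher and none was lower in KO control, and 21 were higher and 7 lower in WT ethanol. Over all genes these shares were 6.4% and 5.24% in KO control and 18.9% and 19% in WT ethanol. Nqo1, a quinone reductase, read 287, 180, 196 and 205 in KO control, 209, 235, 279 and 211 in WT ethanol and 50.9 to 71.98 in WT control. Its joint mean was log2 1.84 above WT control, and the 95% interval of the difference between the insults ran from -0.47 to 0.23. Txnrd1, thioredoxin reductase, read 3063, 2839, 3186 and 3012 in KO control, 3206, 3288, 3412 and 2335 in WT ethanol and 1776 to 2040 in WT control. One RefSeq start of Txnrd1 carries a match to the antioxidant response element core TGACNNNGC, read here as its reverse complement GCNNNGTCA, in the 150 bases before it (chr10:82859056-82859205, plus strand, capitals mark the match).
Txnrd1: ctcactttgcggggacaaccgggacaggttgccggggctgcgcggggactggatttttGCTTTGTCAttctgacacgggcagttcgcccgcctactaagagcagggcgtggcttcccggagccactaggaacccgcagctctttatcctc
The other listed starts of Txnrd1 and the start of Nqo1 held no match in their promoters of 300 bases. The antioxidant core was present in 8 of 34 promoters of the list (23.5%), in 13.99% of all promoters in the table and in 16.79% of those of tested genes. It was in 16.4% of promoters of genes higher in KO control, 16.77% of those higher in WT ethanol and 17.21% of those at a shared level. Other NRF2 genes did separate, 11 of 39 higher in KO control and 10 in WT ethanol (background 18.4% and 18.7%). This split moved with the libraries: it was 3 and 11 with libraries 3 and 4 alone and 12 and 5 with libraries 1 and 2 alone. Over all 13256 genes, libraries 3 and 4 alone gave 1036 and 1025, so the 3 was near the share of all genes. Slc7a11, the cystine importer, read 25.6 to 60.8 in KO control, 5.50 to 12.1 in WT ethanol and 0, 0, 0 and 1.04 in WT control. Gstm2, a mu-class glutathione transferase, read 291 to 523, 993 to 1463 and 174 to 362.

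Some p53 targets were also at a shared level. Zmat3, an RNA-binding p53 target, read 118, 109, 128 and 128 in KO control, 125, 113, 117 and 108 in WT ethanol and 78.3 to 87.5 in WT control. Mdm2, the ligase that degrades p53, read 498 to 685, 474 to 580 and 373 to 411 in the same order, and Aen, a p53-induced nuclease, 140 to 217, 172.4 to 232 and 100.4 to 164. Cdkn1a, of the same list, was the exception described above. Of the 21 tested, 4 were higher in KO control and 6 in WT ethanol, where 18.4% and 18.7% of all genes were, and libraries 3 and 4 alone gave 1 and 2. The same level was reached by 4 of the 21, a smaller share than the 33.2% of all genes, and 3 of these 4 were at a shared level above WT control.

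Cd36, a fatty acid uptake receptor, had the largest joint change (log2 1.497) among genes at a shared level above WT control whose mean was above that of the median gene, a condition that Nqo1 and Tnfaip3 did not meet: 1256 to 1777 in KO control, 1078 to 1608 in WT ethanol and 370 to 703 in WT control. S100a10, the annexin A2 partner, read 1397 to 1750, 1515 to 1796 and 645 to 1147. Slc48a1, a heme transporter of the lysosome (chromosome 15, 97778520 to 97792692, plus strand), read 988, 714, 786 and 784 in KO control, 783, 835, 908 and 788 in WT ethanol and 449 to 505 in WT control, with a difference of log2 -0.03 ± 0.10 between the insults. Nudt18, which hydrolyses oxidised nucleotides, and Kti12, a partner of the Elongator complex, had joint changes of 0.82 and 0.74. Tuba1c, an alpha-tubulin, Bysl, a ribosome assembly factor, G3bp2, a stress granule protein, Alkbh1, a nucleic acid demethylase, and Ces1g, a carboxylesterase with near-identical neighbours, lay between 0.72 and 0.82. Aldh1a1, a retinaldehyde dehydrogenase, read 15727 to 20820, 17136 to 20162 and 10596 to 15127. Hsp90aa1, a cytosolic chaperone, and Tnfaip3, the A20 brake on NF-kB, had joint changes of 0.65 and 1.12. Leaving out 1 of the 12 libraries ended the shared-level call of Cd36 in 7 fits, of Tnfaip3 in 6, of Aen, Alkbh1 and G3bp2 in 4 each, of Nqo1 in 3, of Ces1g in 2 and of Tuba1c and Bysl in 1 each.

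The genes named at a shared level below WT control include 2 of the 26 lipogenic genes, Fads1 and Elovl5. Fads1, the delta-5 desaturase, read 6929, 7145, 4793 and 5136 in KO control, 5381, 4743, 5493 and 5364 in WT ethanol and 8931 to 15118 in WT control. Elovl5, its partner elongase, read 5032 to 8549, 5178 to 7951 and 9763 to 18851. Cmah, which makes the sialic acid Neu5Gc, read 1211, 1606, 1764 and 1446, then 1378, 1274, 1861 and 1449, against 2486 to 3195 in WT control, with an interval of -0.26 to 0.29 for the log2 difference between the insults. Car5a, the mitochondrial carbonic anhydrase, read 240.3 to 322, 216 to 333 and 464 to 567. Fech, which inserts iron into heme, read 1579 to 1688, 1432 to 1618 and 2098 to 2407. Of 29 fatty acid oxidation enzymes 6 were at a shared level below WT control, where 3.1% of all genes were. Among the 6 was Abcd3, a peroxisomal fatty acid transporter, with a joint change of -0.57. Cyp2d40, Cyp2c67 and Ces1e (all with near-identical relatives), Pgap1, an enzyme of GPI anchors, Adh7, an alcohol dehydrogenase, Rnf145, a sterol-responsive ubiquitin ligase, and Gys2, liver glycogen synthase, had joint changes from -1.02 to -0.68. Leaving out 1 of the 12 libraries ended the shared-level call in 9 fits for Adh7, 8 each for Cyp2d40 and Pgap1, 7 each for Elovl5 and Ces1e, 5 each for Fads1 and Cyp2c67, 4 each for Gys2 and Rnf145, 3 for Car5a and 1 for Abcd3.

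**Figure D5:**
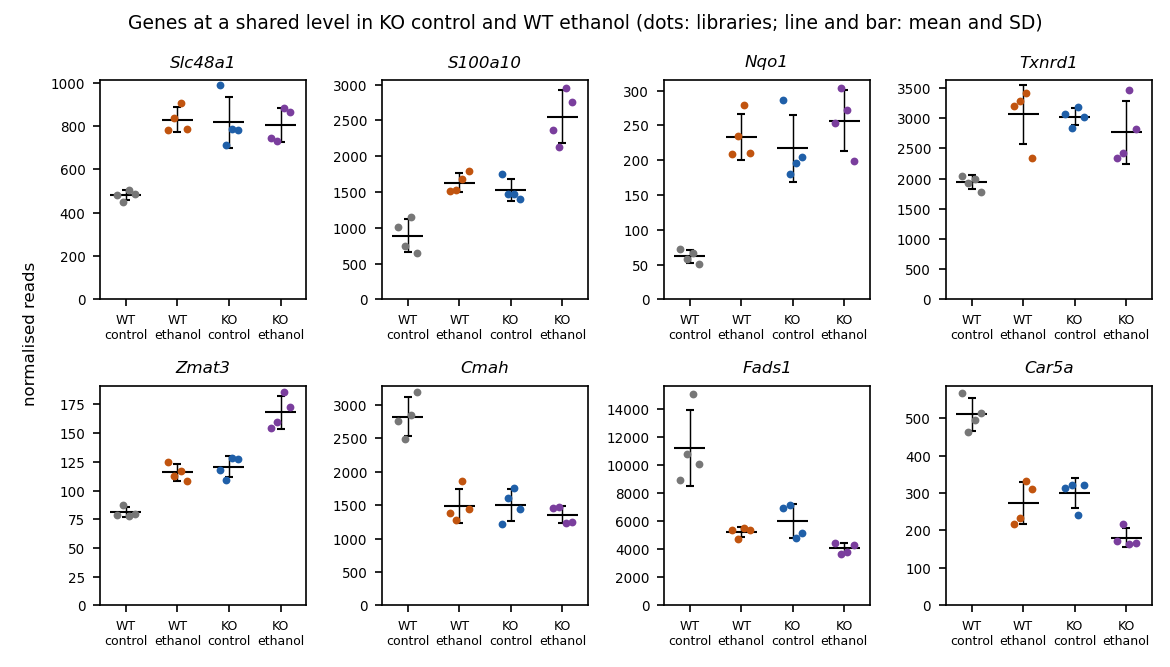
Normalised reads of 8 genes at a shared level in KO control and WT ethanol, in all 16 libraries; dots are libraries and lines with bars are the mean and SD of 4, and each axis starts at 0. Slc48a1, S100a10, Nqo1, Txnrd1 and Zmat3 lie above WT control in both groups, and Cmah, Fads1 and Car5a lie below it in both.

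The ethanol-fed knockouts carry both insults, and their mean was placed by its distance to each single insult on the log2 scale, with no test. It was nearer WT ethanol for 1654 of the 2473 genes higher in WT ethanol (66.9%) and nearer KO control for 1108 of the 2439 genes higher in KO control (45.4%). Over all 13256 genes tested, KO ethanol was nearer WT ethanol for 7572 and nearer KO control for 5684, the background for the list counts that follow. The lists divided. Nearer KO control were 56 of 57 interferon-stimulated genes, 19 of 19 Kupffer cell and macrophage markers, 19 of 24 antigen presentation genes and 10 of 11 mitochondrial DNA-encoded transcripts. The mitochondrial transcripts of KO ethanol lay near WT control, however. Their median log2 difference from WT control was -0.14 in KO ethanol, -0.50 in KO control and 0.64 in WT ethanol. Protein-coding mitochondrial genes made 3.545% to 3.835% of reads in KO ethanol and 3.513% to 3.847% in WT control. Nearer WT ethanol were 24 of 25 cholesterol genes, 21 of 26 lipogenic genes, 22 of 26 integrated stress response genes and 20 of 23 immediate early genes. The P450 and conjugation genes split evenly, 18 and 18. Isg15 read 620, 386, 716 and 680 in KO ethanol, below KO control and far above WT ethanol, and Cyp2b10 read 4731, 13265, 11816 and 10560, below WT ethanol and far above KO control. Lepr in KO ethanol (64.1 to 123) lay above KO control and below WT ethanol, while Plin2 (15474 to 24714) and Insig2 (8839 to 16755) overlapped WT ethanol. S100a10 (2127 to 2955), Zmat3 (154 to 186) and Nudt18 (446 to 520), which each insult alone took to a shared level, read higher in every KO ethanol library than in any library of either single insult, while Slc48a1 (729 to 882) and Nqo1 (198 to 303) did not. Without KO ethanol library 1, an alternative added after seeing the data, the counts were 1614 of 2473 and 1101 of 2439.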

How the data were processed

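Livers were profiled by RNA-seq, 4 libraries in each of 4 groups. The submitters' processing notes list the genome build GRCm38 and the tools edgeR, HTSeq and HISAT2 (2.1.0.13), and the strand setting is unstated there. The deposited values are a signal per gene: each library's read counts over a single size factor. Whole reads were recovered from the steps of these values: 100% lay within 0.01 read of a whole number. Of 27288 genes, 27242 matched GENCODE names and 46 did not.

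Genes with a mean of at least 10 were tested with limma 3.58.1 (R 4.3.3) on log2(value + 1), with a mean-variance trend, 4 group means in 1 fit and Benjamini-Hochberg adjustment over all 13256 genes at 0.05. Fold changes are on that scale and understate those of low genes. The same level was tested by 2 one-sided tests against 1.5-fold, and a shared level also needed the mean of both groups to differ from WT control. Named genes were Dnm1l, the 12 largest non-overlapping differences in each direction above the median level, the 10 largest shared-level changes in each direction, the 6 largest opposite changes in each orientation, and up to 4 differing and 3 shared-level genes per list by smallest p. Members and lists were chosen with earlier results of these data known. Alternatives were edgeR 4.0.16 and DESeq2 1.42.0 on the recovered reads, TMM factors, other pseudocounts, filters and margins, a replicate block, and subsets of libraries. The fits were tested on simulated data. Some genes that the naming rule selects are not reported here.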

Additional observations from a re-analysis of the deposited data

Results flagged for a closer look

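Among the named genes, 387 sets of 4 libraries were examined for a library far from the other 3 of its group (by Dixon's ratio of gap to range, at its 95% critical value), and 29 (7.49%) held one, where chance gives about 1 in 20. All values are normalised reads.

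In KO control, Oasl2 read 2249 in library 4 against 1192 to 1271 in the others, and Ubd 254.8 against 101.3 to 118.4. KO control library 3 was low for Mcm6 (62.61 against 208 to 223.8) and Car5a (240.3) and high for Mt2 (988 against 63.44 to 154.4) and Mt1 (9553 against 521.7 to 1077). KO control library 1 was high for Vldlr (11.4), and library 2 was low for Plin3 (613.5).

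In WT ethanol, library 3 was high for Ifi44 (17.65 against 6.142 to 6.991), Ubd (0.9289 against 0) and Tuba1c (902.9). Library 1 was high for Mpeg1 (348.9 against 196.9 to 206.2). Library 2 was low for Mdm2 (474.2) and high for Gstm2 (1463).

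In WT control, library 2 was high for Ly6a (144.1 against 51.04 to 66.06), Mx1 (27.84), Fcgr1 (42.75), Psat1 (42.75) and Tnfaip3 (43.74), and low for Hsp90aa1 (285.3) and Ces1e (1394 against 2439 to 2502). Library 3 was high for Acly (31006 against 10174 to 11295), Insig1 (5086) and Nudt18 (182.6). Library 1 was high for Mcm5 (70.01) and low for Mbl2 (4272). Library 4 was low for Gsdmd (438) and Bmp2 (98.61) and high for Slc7a11 (1.038 against 0).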

How the results depend on the processing

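The 4912 differing genes became 4909 with edgeR, 5088 with DESeq2, 4939 with TMM factors and 4793 with a replicate block. Same-numbered KO control and WT ethanol libraries were not seen to deviate together (r = -0.0269, 0.0033, -0.0778 and 0.0371). Differently numbered ones gave r from -0.078 to 0.0842. No pairing by number was seen, but such correlations cannot exclude one. With libraries 3 and 4 alone, 2061 genes differed (1036 higher in KO control), 1811 of the 4912 kept their call and 28 had the other sign. That subset also gave 2863 genes for WT ethanol against WT control, 140 at a shared level above WT control and 916 differing genes with KO ethanol nearer KO control (1927 with all libraries). It turned the median log2 difference of acute-phase proteins to 0.20 and of neutrophil markers to 0.29. Libraries 1 and 2 alone gave 1735 genes at the same level, 249 at a shared level and 133 above WT control, and turned the erythroid median to 0.0313. Without a filter on low values, 377 genes were at a shared level, 168 above. A narrower margin gave 0 at the same level, 0 at a shared level and 0 above, and a margin of 2-fold gave 9216, 1848 and 874. The subsets hold fewer samples; otherwise the cause was not tested.

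Leaving out 1 library gave 4091 to 5040 differing genes, 2017 to 2511 higher in KO control, 3676 to 4442 at the same level, 443 to 879 at a shared level, 207 to 394 above, 922 to 1691 for KO control against WT control, 4251 to 5289 for WT ethanol against WT control and 1510 to 2299 nearer KO control. The lowest shared-level count came without WT control library 4 (443, and 922 for KO control against WT control), followed by library 1 (455, with 207 above); without library 2, 211 were above. Dnm1l stayed between -0.27 and -0.13 on the log2 scale.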
